A study of Rattus norvegicus with 16 samples.

Results

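The comparison set cultured rat hippocampal neurons exposed to hydroxyurea for 6 h against untreated cultures of the same series. Samples were taken by their titles: 3 samples labelled hydroxyurea 6 h and 3 labelled control, 6 of the 15 samples and 7 of the 16 arrays, because untreated replicate 1 was hybridised to 2 arrays, here called its first and its repeat array. Their log2 values were averaged and counted as 1 sample. Per the labels, all cultures were primary neurons from the hippocampus of Sprague-Dawley rats at embryonic day 18, plated on polyethyleneimine and grown in Neurobasal medium with B27 supplement. Treated cultures were washed, moved to medium with B27 lacking antioxidants and given 5 µM hydroxyurea for 6 h. The untreated group is labelled with a treatment time of 0 h, and the sources used here do not give how long it spent in the new medium, so the drug and time in that medium cannot be told apart. The extraction protocol names hippocampal tissue while the growth protocol names cultures, and nothing says that replicates were separate cultures, so the spread behind the p-values below may be technical. The other 9 samples of the series, 3 each at 2, 12 and 24 h, entered the fit and share in its estimate of spread.

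Hydroxyurea inhibits ribonucleotide reductase, the enzyme that turns ribonucleotides into the deoxynucleotides used to make DNA, by quenching the radical of its small subunit. In dividing cells the drug stalls replication forks and engages the ATR checkpoint and p53. It also binds metals and can release nitric oxide, and drugs that take iron from the prolyl hydroxylases stabilise the hypoxia-inducible factors (HIF), transcription factors that otherwise are degraded when oxygen is present. Neurons are postmitotic and keep only a small deoxynucleotide pool for repair and for mitochondrial DNA. The study concerns protection of hippocampal neurons against stress, and the comparison addresses which transcripts differed after 6 h.

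Signal was measured on a 1-colour Agilent array, on which the brightness of a spot stands for the amount of a transcript. Levels are given as the log2 intensity of a probe minus the 75th percentile of its array, so they compare samples for 1 probe and not 1 probe with another. Across the 16 arrays 64.6% to 70.4% of probes were well above background and no spot was saturated. Repeated spots of a probe had a median coefficient of variation of 21.5% on the array of 12 h replicate 3. The next highest value was 10.6%, on the first array of untreated replicate 1. On the array of 12 h replicate 3, 6.34% of spots in rows 1 to 64 and 6.46% in other rows lay over 2-fold below their probe's median. On slide 1 were 6 h replicates 1 and 2, untreated replicate 2 and the first array of replicate 1. On slide 2 were 6 h replicate 3, untreated replicate 3 and the repeat array.

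The first array of untreated replicate 1 had a region of low signal. In its spot rows 1 to 64, of 384 rows, 18.9% of 7050 spots lay over 2-fold below the median of their probe across the 16 arrays, against 0.408% of 35302 spots in its other rows. On the other 6 arrays of the comparison at most 0.284% of spots in rows 1 to 64 were that low. Against its own repeat array, the share of spots over 2-fold lower was 52.2% in rows 1 to 32 and columns 83 to 123, and 37.2% in the same rows and columns 124 to 164. Because the low array is 1 of 4 untreated arrays, values with rows 1 to 64 of that array left out, a setting chosen after seeing the data, stand beside the genes and lists most affected.

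**Figure D1:**
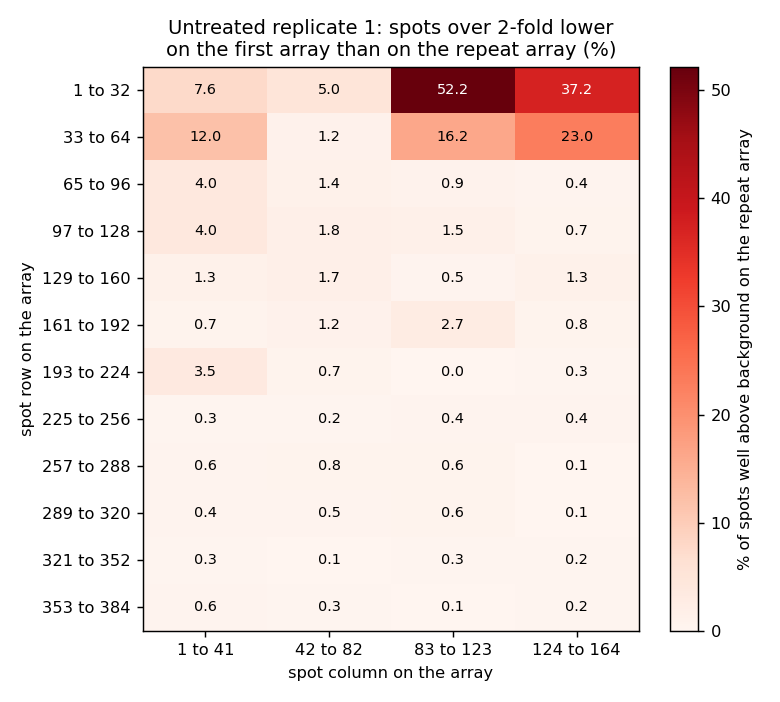
Map of the first array of untreated replicate 1, with spot rows down and spot columns across. Each cell gives the percentage of spots well above background on the repeat array that were over 2-fold lower on the first array; the highest cell, 52.2%, lies in rows 1 to 32 and columns 83 to 123.

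No gene passed the test at 6 h. Of 18110 features, 11083 named genes and 7027 unnamed probes, 0 (0%) had an adjusted p under 0.05 with limma (smallest adjusted p 1.00, which is also the adjusted p of every gene named in the text). An unadjusted p under 0.05 was found for 134 features, 0.740% where the threshold itself is 5%: 77 were higher (0.425%) and 57 lower (0.315%) at 6 h. The 3 treated values lay above all 3 untreated values for 262 features (1.45%) and below them for 433 (2.39%). Samples can be split 3 against 3 in 20 ways, and 1 of these puts every treated value highest. Both shares are below 1 in 20. Of all features 47.9% had a higher mean at 6 h, and the median log2 difference was -0.0047. The median distance between samples of a feature was 0.14 to 0.15 among the 6 h samples and 0.16 to 0.20 among the untreated samples, and the group means differed by a median of 0.06. Means of 3 samples vary less than single samples, so these distances cannot be compared directly.

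The precision limits how large an undetected difference could be. The median standard error (SE) of a difference was 0.16, and the median 95% interval reached 0.35 on either side, 1.27-fold. With 12 h replicate 3 left out of the fit, the median SE was 0.14. For 17138 features (94.6%) the whole interval lay within 2-fold, and for 13885 (76.7%) within 1.5-fold. A mean difference over 1.5-fold was measured for 244 features, 207 higher and 37 lower, and 50 of them had an unadjusted p under 0.05. The balance of those 244 moved with the first array: with its rows 1 to 64 left out, 56 were higher and 35 lower. Of the 207 higher features, 155 (74.9%) were over 2-fold lower on the first than on the repeat array of untreated replicate 1, as were 0 of the 37 lower ones and 609 (3.36%) of all features.

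**Figure D2:**
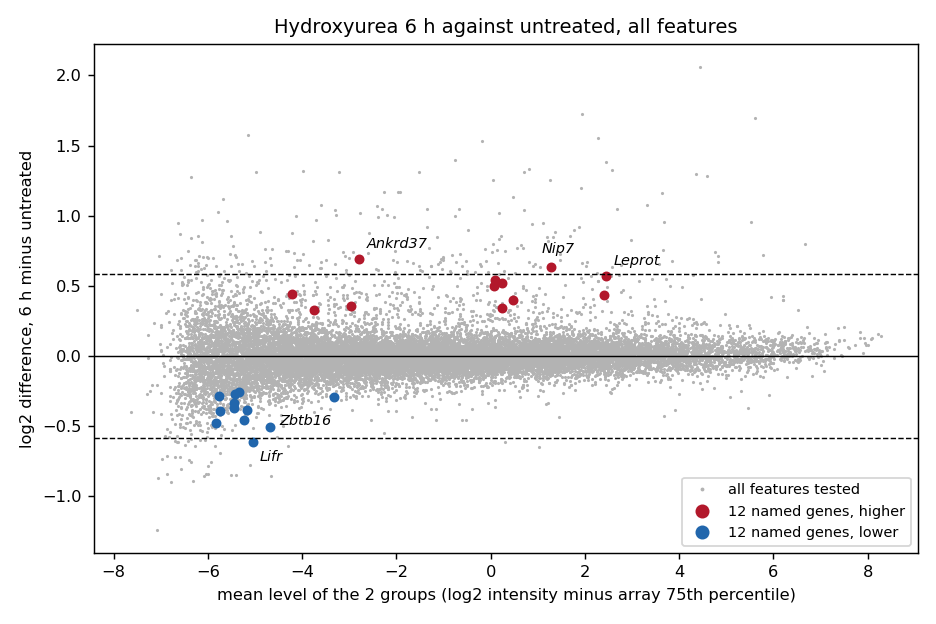
Log2 difference between 6 h and untreated (vertical axis) against the mean level of the groups in log2 intensity minus the array's 75th percentile (horizontal axis), 1 point per feature; dashed lines mark 1.5-fold. The 12 named genes with a higher mean are red and the 12 with a lower mean are blue; the grey points above the upper line spread over the whole range of levels, and most of those below the lower line sit at dim levels.

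Among genes with a higher mean at 6 h the smallest unadjusted p of a named gene belonged to Ankrd37 (NM_001108400), an ankyrin repeat protein known in human cells as a target of HIF-1. Its level was -2.30, -2.36 and -2.67 in the treated samples and -2.88, -3.05 and -3.47 in the untreated samples. All 3 treated values exceeded all untreated ones. The log2 difference was 0.69 (SE 0.20, n = 3 and 3), a 1.62-fold higher mean, with limma's adjusted p of 1.00. Of its 10 spots 1 lies in rows 1 to 64 of the array, and the difference was 0.69 without it, 0.63 within slide 1 and 0.51 within slide 2. At 2, 12 and 24 h, which share the untreated samples, it was 0.65, 0.73 and 0.73, and 6 h differed from the mean of these times by -0.01 (SE 0.16).

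HIF binds a short core, ACGTG, in the promoters of its targets. In RefSeq promoters of rat build GRCr8, reaching from 250 bases before to 50 bases after the start of a gene, the core occurs on either strand in 19.3% of 33469 promoters, and the palindrome CACGTG, which holds it and is the E-box of other factors, in 6.42%. The 250 bases before the start are shown for Ankrd37, the member with the largest difference, at chr16:53001257-53001506 on the plus strand, and for Bnip3, the mitophagy receptor that is a standard HIF target and the other member with an E-box, at chr1:203154963-203155212 on the minus strand. Both read 5′ to 3′ toward the gene, with the core or the palindrome around it in capitals.
Ankrd37: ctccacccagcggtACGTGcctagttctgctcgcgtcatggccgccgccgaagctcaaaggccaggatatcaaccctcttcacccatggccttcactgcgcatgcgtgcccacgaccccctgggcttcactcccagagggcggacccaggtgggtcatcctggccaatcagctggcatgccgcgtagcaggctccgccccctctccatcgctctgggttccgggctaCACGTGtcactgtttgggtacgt
Bnip3: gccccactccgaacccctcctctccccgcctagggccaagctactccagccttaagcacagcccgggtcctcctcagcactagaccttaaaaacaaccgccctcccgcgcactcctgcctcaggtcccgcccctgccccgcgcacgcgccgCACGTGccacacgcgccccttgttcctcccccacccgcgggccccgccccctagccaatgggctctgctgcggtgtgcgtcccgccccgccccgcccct
In Ankrd37 one core lies at the far end of the window and the palindrome close to the start site, while in Bnip3 the palindrome stands in the middle. A further match of the core in Ankrd37 reaches past the start site and is not in capitals. Of 18 measured genes of the HIF-induced list 15 were in the promoter table, and 11 of these hold the core. Of the 12 named genes with higher means 10 were in the table and 2 hold it, and of the 12 with lower means 10 were in the table and 0 hold it. The letters are a description and do not show binding.

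HIF-induced genes outside glycolysis had mostly higher means at 6 h, by small amounts. Of 18 measured members, of 23 listed, 15 were higher and 3 lower, and 0 passed the test. Their median log2 difference was 0.08 beside -0.0047 over all features, and 3 members lay above all untreated values, where 1.45% of features did. The median stayed above 0 in all 24 alternative settings, from 0.02 within slide 1 to 0.15 within slide 2. With each member set against its untreated mean, the median over the list was 0.06, 0.11 and 0.12 in the treated samples and 0.04, -0.03 and -0.04 in the untreated samples. These groups did not overlap, although untreated replicate 1 lay close to the lowest treated sample.

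Besides Ankrd37, the separated members were Vegfa and Kdm3a. Vegfa (NM_001287107), the secreted growth factor of blood vessels, was at 1.99, 1.99 and 2.20 in treated and at 1.81, 1.70 and 1.78 in untreated samples. The treated values were all higher, with a difference of 0.30 (SE 0.15). Its other probes gave 0.32, 0.02 and 0.41, and the probe used gave 0.04, 0.41 and 0.19 at 2, 12 and 24 h. Kdm3a (NM_175764), a histone demethylase that needs oxygen and iron, was at -1.70, -1.85 and -1.96 against -1.99, -2.08 and -2.01. The groups touched closely without overlap, and the difference was 0.19 (SE 0.21).

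Other members did not separate the groups. The collagen prolyl hydroxylase P4ha1 stood at 0.24 (SE 0.19), the vasoactive peptide gene Adm at 0.16 (SE 0.13) and Bnip3 at 0.10 (SE 0.17). Other well-known targets were near the untreated level, with the carbonic anhydrase Car9 at -0.02 (SE 0.17), the pyruvate dehydrogenase kinase Pdk1 at -0.01 (SE 0.15) and the heme oxygenase Hmox1 at 0.01 (SE 0.22). The HIF subunits and oxygen sensors themselves numbered 8 measured genes, 6 higher and 2 lower, with a median of 0.08 and 0 past the test. That median was 0.02 without untreated replicate 3 or without 6 h replicate 1, 0.03 without untreated replicate 1 and -0.0039 within slide 1. Among them Hif1a, the oxygen-regulated subunit, stood at 0.10 (SE 0.20) and the asparagine hydroxylase Hif1an at 0.16 (SE 0.18).

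**Figure D3:**
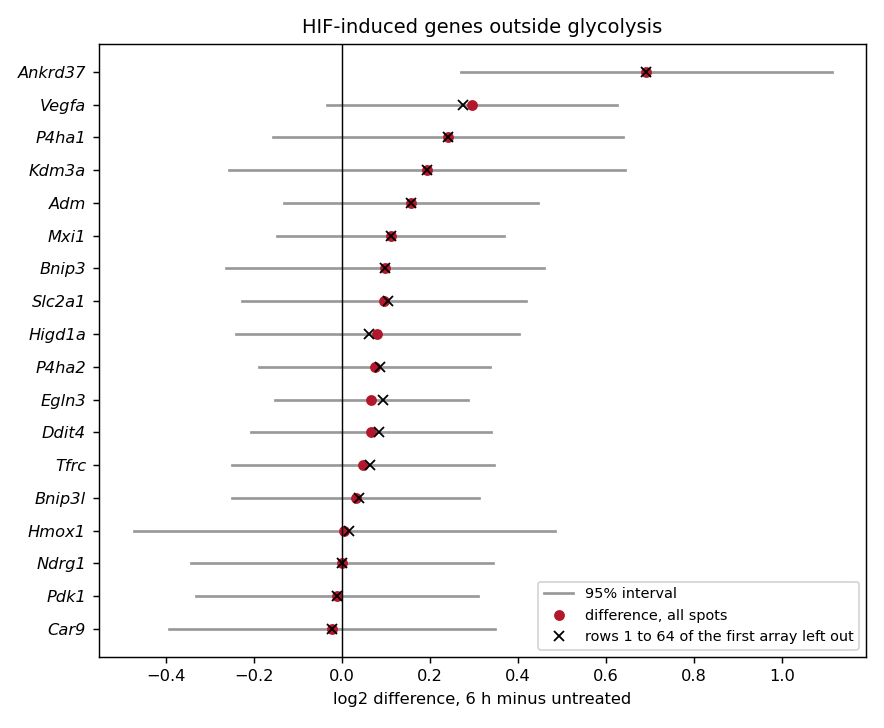
Log2 difference between 6 h and untreated for the 18 measured HIF-induced genes outside glycolysis, with limma's 95% interval as a grey bar and the value with rows 1 to 64 of the first array left out as a cross. Ankrd37 at 0.69 is the 1 gene whose interval lies above 0, and circles and crosses nearly coincide for all 18.

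Glycolysis genes showed no common shift. Of 26 measured members 12 had higher and 14 lower means, with a median of -0.0013 and 0 past the test. The largest positive values came from Pgk1 and Aldoc, whose spots lie in the low region of the first array. Pgk1 (NM_053291), phosphoglycerate kinase, was at 5.04, 5.15 and 5.30 in treated and at 3.31, 5.08 and 5.08 in untreated samples. Untreated replicate 1 alone was low, at 1.63 on its first and 4.99 on its repeat array. Its difference of 0.67 (SE 0.34) became 0.11 with the rows left out, and that of Aldoc, the aldolase of astrocytes and neurons, went from 0.40 (SE 0.18) to 0.12. A second probe of Aldoc gave -0.10. Gapdh at -0.08 (SE 0.17) and the lactate dehydrogenase Ldha at -0.00 (SE 0.13) were near the untreated level.

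Of the 12 named genes with the smallest unadjusted p among those higher at 6 h, 6 kept their separation when rows 1 to 64 of the first array were left out: Ankrd37, Pbx2, Atosb, Metrn, Retreg3 and Taf15. Pbx2 (NM_001002828), a homeobox cofactor of Hox proteins, was at -2.75, -2.79 and -2.81 in treated and at -3.36, -2.98 and -3.07 in untreated samples. Its treated values were tightly grouped above the untreated ones, with a difference of 0.36 (SE 0.13; 0.24 without untreated replicate 1). Metrn (NM_001009962), meteorin, a secreted protein that promotes glial differentiation and axon growth, was at 0.15, 0.57 and 0.26 against -0.50, 0.09 and -0.11. The lowest treated and the highest untreated value nearly met, and the difference was 0.50 (SE 0.19).

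Taf15 (NM_001105824), an RNA-binding protein of the FET family, was at 0.06, 0.73 and 0.30 in treated and at -0.14, -0.24 and -0.16 in untreated samples. Treated replicate 2 was the highest, and the difference of 0.54 (SE 0.23) was 0.36 without it. A second probe of Taf15 gave 0.63. Retreg3 (NM_001135804), a receptor for autophagy of the endoplasmic reticulum, was at 0.27, 0.60 and 0.38 against -0.02, 0.11 and 0.13, a difference of 0.34 (SE 0.14). Atosb (NM_001013931) was at -4.15, -3.71 and -4.11 against -4.45, -4.48 and -4.38, a difference of 0.44 (SE 0.17; 0.30 without 6 h replicate 2). At 2, 12 and 24 h Taf15 stood at 0.64, 0.62 and 0.14, and Atosb stood at -0.11, 0.08 and 0.06.

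The other 6 named genes no longer separated the groups once those rows were left out, and their differences were over 1.5 times smaller. Leprot (NM_020099), an endosomal membrane protein, was at 2.66, 2.71 and 2.85 in treated and at 1.39, 2.62 and 2.51 in untreated samples. The low untreated value averaged -0.01 on the first array with 2.79 on the repeat array. Its difference of 0.57 (SE 0.25) became 0.08. Nip7, a factor of ribosome assembly, went from 0.64 (SE 0.24) to 0.21, and the endocytic membrane-bending protein gene Pacsin2 from 0.52 (SE 0.23) to 0.14. A second probe of Pacsin2 gave 0.01 with all spots. The zinc finger gene Zfp467 went from 0.40 (SE 0.17) to 0.04 and the actin regulator Whamm from 0.33 (SE 0.12) to 0.16.

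Other genes of the lists moved the same way. Rps15, a protein of the small ribosomal subunit, was at 5.83, 5.90 and 6.31 in treated and at 3.18, 6.01 and 5.97 in untreated samples. Untreated replicate 1 stood at 0.52 on its first and 5.84 on its repeat array, and the difference of 0.96 (SE 0.53) became 0.07. Aifm2, a suppressor of ferroptosis, went from 0.77 (SE 0.29) to 0.14, and the fatty acid elongase Elovl6 from 0.64 (SE 0.37) to -0.02. The mevalonate kinase Mvk went from 0.58 (SE 0.37) to 0.05, the glutathione transferase Gsta4 from 0.53 (SE 0.28) to 0.05 and the serine synthesis enzyme Phgdh from 0.42 (SE 0.21) to 0.04. The same untreated samples enter every treatment time, and with all spots Rps15 stood at 1.03, 1.04 and 1.01 and Aifm2 at 0.86, 0.82 and 0.76 at 2, 12 and 24 h.

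**Figure D4:**
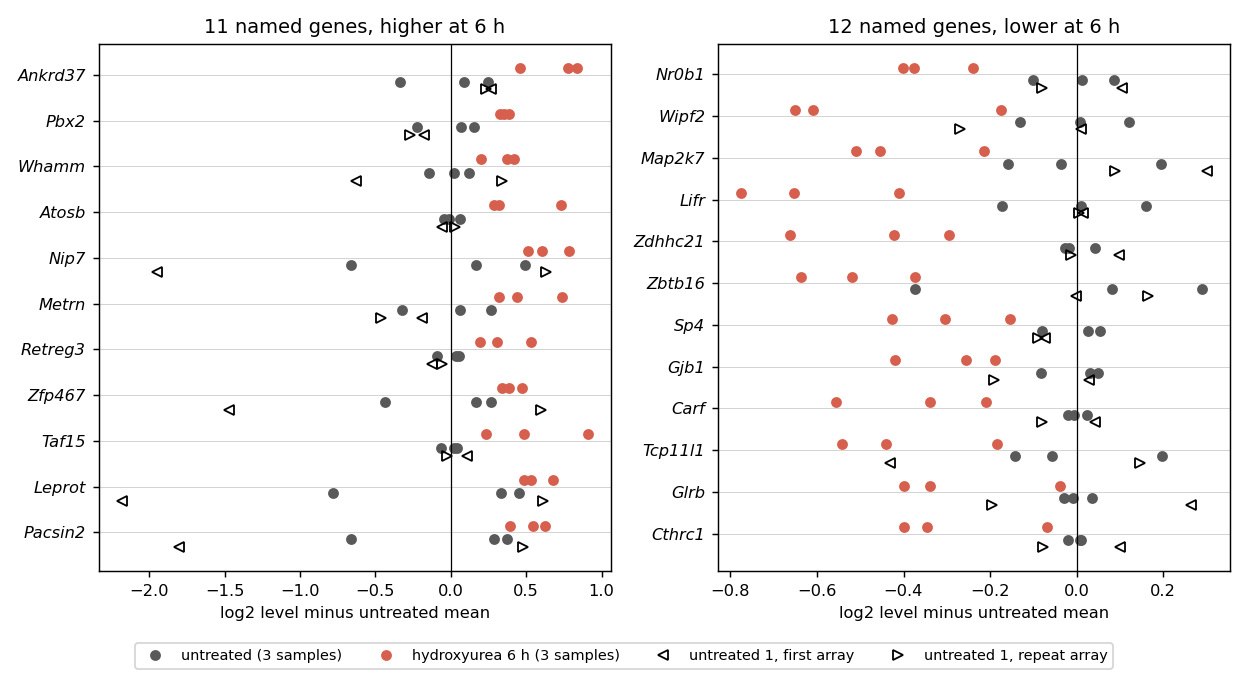
Level of named genes by sample as log2 difference from the untreated mean, with 11 of the 12 genes higher at 6 h on the left and the 12 lower on the right; circles are samples and open triangles the 2 arrays of untreated replicate 1. In Leprot the first array, at a level of -0.01, stands far left of the repeat array, at 2.79, and in Ankrd37 the triangles lie together.

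The 12 named genes with the smallest unadjusted p among those lower at 6 h lay mostly at dim levels, and 11 of them kept their separation with rows 1 to 64 left out. Carf, the calcium-responsive transcription factor first described on the Bdnf promoter, was the exception and went from -0.37 (SE 0.16) to -0.28. Lifr (NM_031048), the receptor of leukaemia inhibitory factor, was at -5.15, -5.40 and -5.52 in treated and at -4.73, -4.92 and -4.58 in untreated samples. Every treated value was below every untreated one. The difference was -0.61 (SE 0.22), a 1.53-fold lower mean, and -0.14 under another background correction (normexp). It was -0.45 within slide 1 and -0.86 within slide 2, and at 2, 12 and 24 h it was -0.10, -0.02 and -0.04.

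Zbtb16 (NM_001013181), a zinc finger repressor that glucocorticoids induce in many cells, was at -4.79, -4.94 and -5.06 in treated and at -4.34, -4.79 and -4.13 in untreated samples. Untreated replicate 2 nearly met the highest treated value, and the difference was -0.51 (SE 0.21). It was -0.70 without untreated replicate 2, -0.26 within slide 1, -0.86 within slide 2 and -0.14 under normexp. Sp4 (NM_012761), a GC-box factor enriched in neurons, was at -3.33, -3.48 and -3.60 against -3.25, -3.12 and -3.15, a difference of -0.30 (SE 0.12; -0.12 under normexp), and a second probe of Sp4 gave -0.27. Nr0b1 (NM_053317), an orphan nuclear receptor without a DNA-binding domain, was at -5.68, -5.65 and -5.52 against -5.27, -5.38 and -5.19. The groups did not overlap, and the difference of -0.34 (SE 0.11) was 0.00 under normexp.

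The rest of the lower genes ranged from -0.26 to -0.48. Wipf2, a partner of WASP proteins in actin assembly, stood at -0.48 (SE 0.16), the palmitoyltransferase Zdhhc21 at -0.46 (SE 0.17) and the JNK activator kinase Map2k7 at -0.39 (SE 0.14). Tcp11l1 was at -0.39 (SE 0.18), the connexin Gjb1 at -0.29 (SE 0.12), the secreted protein gene Cthrc1 at -0.27 (SE 0.12) and the glycine receptor subunit Glrb at -0.26 (SE 0.12). Under normexp, a setting that also starts from the median signal of a spot and adds an offset of 50, Zdhhc21 was at -0.04 and Tcp11l1 at -0.05, and Wipf2, Map2k7, Gjb1, Carf, Glrb and Cthrc1 turned to small positive values of 0.02 to 0.12. The cause was not tested. Over all features the median difference under normexp was 0.04, beside -0.0047 in the main fit. A second probe of Tcp11l1 gave -0.31.

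The genes of the enzyme that hydroxyurea inhibits were near the untreated level. Rrm1 (NM_001013236), the large subunit, was at -4.17, -4.08 and -4.18 in treated and at -4.26, -4.16 and -4.11 in untreated samples. Rrm2 (NM_001025740), the small subunit that carries the radical, was at 2.92, 3.24 and 3.31 against 3.19, 3.06 and 2.78. Both groups overlapped for both genes. The 95% interval of the difference ran from -0.25 to 0.32 for Rrm1 and from -0.23 to 0.52 for Rrm2. The difference of Rrm1, 0.03, was 0.11 with rows 1 to 64 of the first array left out. Over the 13 measured genes of deoxynucleotide supply, of 14 listed, differences ran from -0.14 for the kinase Dck to 0.15 for Rrm2, 7 higher and 6 lower, with a median of 0.01. For 12 of the 13 the interval lay within 1.5-fold, beside 76.7% of all features. Rrm2b, the subunit used outside S phase, did not pass the filter on dim probes and was not tested.

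Targets of p53 and checkpoint genes divided evenly, 12 higher and 12 lower of 24 measured, with a median of -0.0044 and 0 past the test (11 higher and a median of -0.02 with the rows left out). Cdkn1a, the cyclin-dependent kinase inhibitor that p53 induces, was at 2.91, 2.54 and 2.90 in treated and at 2.71, 2.84 and 3.11 in untreated samples. The groups overlapped, with a difference of -0.10 (SE 0.19). Mdm2, the ubiquitin ligase that limits p53, stood at 0.00 (SE 0.13), the proapoptotic genes Bax at 0.23 (SE 0.16) and Bbc3 at 0.20 (SE 0.21), and the death receptor Fas at -0.25 (SE 0.19). The highest member was Phlda3 at 0.35 (SE 0.29), a repressor of AKT. Without untreated replicate 1 Bax was at 0.10, Bbc3 at -0.05, Phlda3 at -0.0033 and Fas at -0.41.

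Of 32 measured cell cycle genes 11 had higher and 21 lower means, with a median of -0.03 and 0 past the test. Cdc27 (NM_001024793), a subunit of the anaphase-promoting complex, stood at -0.86 (SE 0.25) and at -0.53 without 6 h replicate 3. It was at -6.39, -6.00 and -7.16 in treated and at -5.90, -5.80 and -5.28 in untreated samples, and only 2 of the 3 treated arrays were well above background. Anapc1, Anapc5 and Anapc7 of the same complex stood at -0.07 (SE 0.11), -0.01 (SE 0.13) and -0.00 (SE 0.13). The proliferation marker Mki67 was at 0.00 (SE 0.15) and the replication clamp Pcna at -0.01 (SE 0.11).

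Stress programmes were close to the untreated level as groups. Genes of NRF2, the factor that controls antioxidant enzymes, had a median of 0.01 with 14 of 26 higher, and those of the integrated stress response one of 0.02 with 14 of 22 higher. Atf4, the factor at the centre of that response, stood at 0.11 (SE 0.15) and its target Ddit3 at -0.15 (SE 0.17). Chaperones of the endoplasmic reticulum and heat shock proteins had the narrowest range of these lists, -0.10 to 0.05 over 20 genes, 10 higher and 10 lower. Cholesterol and fatty acid synthesis had 18 of 26 higher and a median of 0.08 (0.06 with the rows left out). That median was -0.03 without 6 h replicate 3, 0.04 and 0.01 without untreated replicates 1 and 2, and 0.01 within slide 1. In each of these lists 0 genes passed the test.

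Among the remaining response lists, Irf9, a subunit of the interferon-activated factor ISGF3, had a difference of 0.57 (SE 0.27) that came from 1 sample. It was at -2.39, -3.52 and -3.73 in treated and at -3.81, -3.76 and -3.79 in untreated samples, so treated replicate 1 alone stood apart, and the difference was 0.16 without it. Interferon and inflammatory genes as a list had a median of 0.02 with 7 of 13 higher. Genes of nitric oxide and cyclic GMP signalling had 4 of 13 higher and a median of -0.05, with the neuronal synthase Nos1 at -0.26 (SE 0.27). That median was 0.03 within slide 2 and 0.08 under normexp, beside 0.04 over all features under normexp. Nos1 was at -0.48 without untreated replicate 1 and -0.12 without untreated replicate 3, and a second probe of Nos1 gave -0.07. Iron handling and heme synthesis each had 8 of 13 genes higher, with medians of 0.02 and 0.01. Clock genes had 7 of 15 higher and a median of -0.04, glucocorticoid response genes 7 of 13 and 0.00, and BCL2 family genes 7 of 13 and 0.04. Neurotrophins and their receptors had 5 of 11 higher and a median of -0.01. In these lists 0 genes passed the test.

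Neuronal genes had more lower than higher means, by small amounts. Glutamate receptor genes were higher in 8 and lower in 14 of 22 (median -0.02; 6 higher with the rows left out), GABA receptor genes in 4 and 9 of 13 (median -0.03), and presynaptic release genes in 7 and 19 of 26 (median -0.03). Immediate early and activity-regulated genes were higher in 7 and lower in 15 of 22 (median -0.03), and amyloid precursor processing and tau genes in 3 and 16 of 19 (median -0.03). Beside these, 52.1% of all features were lower. In each of these lists 0 genes passed the test. The median of the glutamate receptor list was 0.02 without untreated replicate 2, that of the presynaptic list was 0.02 without untreated replicate 3 and 0.03 within slide 1, and that of the amyloid and tau list was 0.01 without 6 h replicate 2 and 0.02 within slide 1. Under normexp the medians of glutamate receptor, GABA receptor, presynaptic and immediate early genes turned above 0, to at most 0.03, while that of the amyloid and tau list was -0.04. The median over all features was 0.04 under normexp, so all these list medians stayed below it.

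Grin1 (NM_001270602), the subunit present in every NMDA receptor, was at -4.31, -4.25 and -4.26 in treated and at -3.92, -4.16 and -3.86 in untreated samples. The treated values were tight and lay below the untreated ones, with a difference of -0.29 (SE 0.17; -0.20 with the rows left out), beside -0.34, -0.43 and -0.23 at 2, 12 and 24 h. A second probe of Grin1 gave 0.06. Gabra4, a GABA-A receptor subunit, was at -2.66, -3.02 and -2.72 against -2.55, -2.62 and -2.48, a difference of -0.25 (SE 0.19). Grm2, a presynaptic glutamate autoreceptor, stood at -0.21 (SE 0.14) and the synapsin Syn3 at -0.37 (SE 0.25), and both overlapped the untreated values with the rows left out. The activity markers Fos at -0.04 (SE 0.17), Arc at -0.04 (SE 0.11) and Bdnf at -0.12 (SE 0.15) did not separate the groups, nor did the AMPA receptor subunit Gria2 at -0.01 (SE 0.18) or the amyloid precursor App at -0.02 (SE 0.13).

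Genes of the ribosome and the respiratory chain, which are abundant in all cells, had medians of opposite sign on the slides. Ribosomal protein genes were higher in 33 and lower in 9 of 42, with a median of 0.04, which was -0.08 within slide 1 and 0.25 within slide 2. Respiratory chain genes were higher in 20 and lower in 13 of 33, with a median of 0.02, which was -0.07 within slide 1 and 0.15 within slide 2. Without 6 h replicate 3, the 1 treated sample on slide 2, both medians were -0.05. In both lists 0 genes passed the test. The part of the slide in these values was not tested.

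Markers gave the makeup of the cultures, where fewer cells of a type and less RNA per cell cannot be told apart. Of 20 listed neuron markers 18 were measured, 5 with a higher and 13 with a lower mean and a median of -0.03. With the rows left out 8 were higher and the median was -0.02, and without untreated replicate 3 the median was 0.02. The dendritic protein gene Map2 stood at -0.11 (SE 0.16) and the neuronal tubulin Tubb3 at -0.08 (SE 0.17). Markers of GABAergic interneurons had 4 of 11 higher and a median of -0.02. Astrocyte markers numbered 19 measured genes, 15 of them with a higher mean, and had a median of 0.05. Over that list the median per sample was 0.09, 0.11 and -0.02 in treated and 0.11, 0.07 and -0.11 in untreated samples, so the groups overlapped. The list median turned to -0.02 within slide 1 and -0.01 without untreated replicate 3. Gfap, the intermediate filament of astrocytes, stood at 0.02 (SE 0.29) and Aldh1l1, a folate enzyme specific to them in brain, at -0.07 (SE 0.12; -0.04 with the rows left out). Among separated members, Aldoc became 0.12 with the rows left out. Gpc5, a proteoglycan, was at -3.35, -3.28 and -3.20 in treated and at -4.84, -3.35 and -3.51 in untreated samples. Its difference of 0.63 (SE 0.28) became 0.43 with the rows left out and 0.16 without untreated replicate 1. The difference was 0.90 and 0.82 without untreated replicates 2 and 3.

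Other cell types had marker medians of -0.01 for the oligodendrocyte lineage (4 of 11 higher), 0.01 for microglia (7 of 8), -0.06 for endothelium (1 of 4), -0.10 for meningeal fibroblasts and pericytes (2 of 11) and 0.02 for radial glia (7 of 11). In these lists 0 genes passed the test. Abcc9, a potassium channel subunit of pericytes, was the lowest fibroblast and pericyte marker at -0.44 (SE 0.18) and was well above background on 1 of 3 treated and 4 of 4 untreated arrays. Per sample the fibroblast and pericyte median was -0.17, -0.09 and -0.06 in treated and -0.06, 0.01 and 0.20 in untreated samples, and the groups overlapped. The list median of -0.10 was -0.01 without untreated replicate 3, 0.08 within slide 2 and 0.05 under normexp. Nes, the progenitor filament, separated the groups at -0.17 (SE 0.14).

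Most list medians were small enough for 1 sample to turn their sign. Of the 33 lists 25 changed the sign of their median in at least 1 of the 6 fits that left out 1 sample, and 8 kept it. Of these 8 lists 4 also kept it within each slide: HIF-induced genes outside glycolysis, GABA receptors, cell cycle genes and immediate early genes. The medians of the GABA receptor and immediate early lists turned above 0 under normexp but stayed below the median over all features, as given above.

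**Figure D5:**
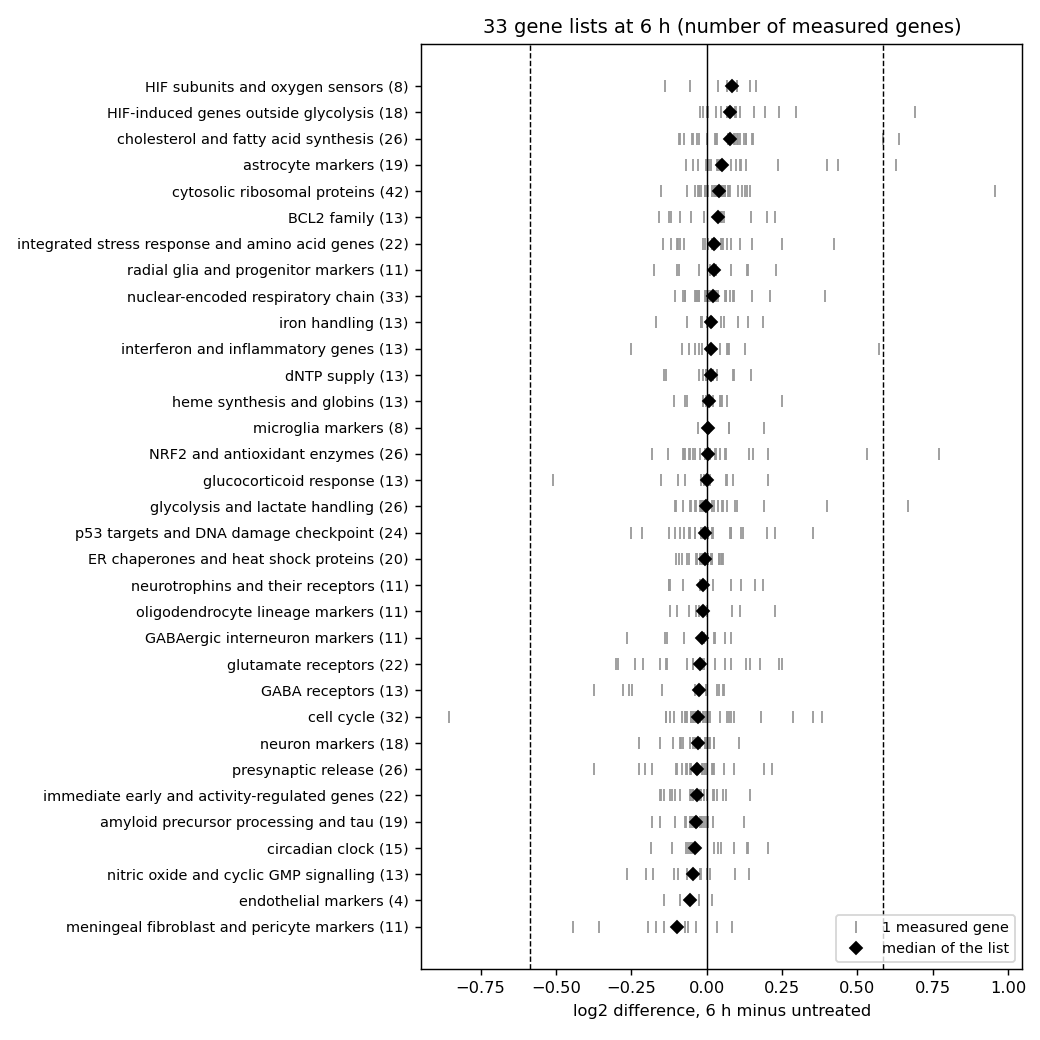
Log2 difference between 6 h and untreated for every measured gene of 33 lists, 1 tick per gene, with the list median as a diamond and dashed lines at 1.5-fold; the number of measured genes stands in brackets. All medians lie between -0.10 for meningeal fibroblast and pericyte markers and 0.08 for HIF subunits, and ticks beyond 1.5-fold belong to single genes such as Cdc27, Rps15 and Ankrd37.

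Expression at 6 h was also set against the mean of the other treated times, which asks what was particular to that time among treated cultures and does not use the untreated samples. With limma 0 of 18110 features (0%) passed, with a smallest adjusted p of 1.00. The unadjusted p was under 0.05 for 219 features, of which 61 were higher (0.337%) and 158 lower (0.872%). Genes named in both comparisons were Atosb, higher by 0.44 (SE 0.14), Lifr, lower by a log2 difference of -0.56 (SE 0.18), and Sp4, at -0.31 (SE 0.10). These comparisons share the 6 h samples. Others higher at 6 h were the transcription factor gene Zbtb6 at 0.54 (SE 0.18), the adhesion protein gene Tenm4 at 0.54 (SE 0.17), Ubp1, a factor of the CP2 family, at 0.49 (SE 0.17), Lipogenin at 0.42 (SE 0.14) and the Rap activator Rapgef5 at 0.30 (SE 0.08). Ubp1 was 0.18 without 6 h replicate 2, Zbtb6 was 0.29 without 6 h replicate 1 and Lipogenin 0.27 without 6 h replicate 3. Others lower were Rasa3, a GTPase-activating protein, at -0.55 (SE 0.17), the tendon factor Scx at -0.55 (SE 0.15), Specc1 at -0.36 (SE 0.11) and the single-strand DNA-binding protein gene Fubp3 at -0.32 (SE 0.11). Without 6 h replicate 3 Scx was -0.36.

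Several of these values were smaller in other measurements of the same contrast between 6 h and the other treated times. Under normexp Atosb was 0.28, Ubp1 0.30 and Lipogenin 0.23, while Lifr was -0.19, Sp4 -0.10, Specc1 -0.16, Fubp3 -0.14 and Scx -0.32. Second probes gave 0.08 for Zbtb6, -0.28 for Rapgef5 and 0.04 for Scx, so the probes of Rapgef5 and of Scx had opposite signs. The second probe of Rapgef5 was well above background on 1 of 3 treated and 3 of 4 untreated arrays.

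Detection differed little between the groups. Of all 18110 features 16911 were well above background on all 7 arrays, and 0 were so on all 6 h arrays and no untreated one. On all untreated arrays and no 6 h one 32 were so, 14 of them named. These 32 meet the filter through the untreated group, where they are well above background, so their differences are a description. Lum, a proteoglycan of fibroblast matrix, was at -6.94, -6.17 and -6.20 in treated and at -6.39, -6.03 and -5.82 in untreated samples. These values overlap near background, with a difference of -0.36 (SE 0.38). Tmem63a stood at -0.41 (SE 0.25) and Zc3h12b at -1.24 (SE 0.30), with limma's adjusted p of 1.00 for each. Under normexp these 14 named genes had differences from 0.03 for Zc3h12b to 0.23, beside a median of 0.04 over all features. Apbb1ip was also positive in the main fit, at 0.06, and the others changed direction.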

How the data were processed

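RNA of 15 samples was hybridised to 16 Agilent 1-colour rat arrays. Each deposited scanner file gives the intensity of every spot, per the file headers from Feature Extraction 11.5.1.1 (GE1_1105_Oct12, design on rn4), after background subtraction and without scaling between arrays. The series values deposited by the authors are a score per array, the standard score of log signal, and were an alternative; its columns for 24 h replicates 1 and 3 match each other's scanner file. How the authors used it was not given in the sources used here. Of 62976 spots per array, 4259 control spots and outlier spots were left out. Spots were averaged to 30367 probes: 18758 matched 15715 RefSeq symbols and 11609 had no match in that list. The value was log2 processed signal minus the array's 75th percentile over non-control spots. The brightest probe stood for a gene, and the filter asked for at least 1 group whose arrays all had the probe well above background. The test was limma 3.58.1 (R 4.3.3, version 1.17.8 of data.table), two-sided, from 1 fit over 15 samples without covariates; degrees of freedom were 10 residual plus 3.56 prior. It used Benjamini-Hochberg adjustment over all features and a threshold of 0.05. Exact permutation of 3 against 3 samples cannot give a p below 0.1, so none is given.

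Named genes were the 12 with the smallest unadjusted p in each direction whose probe was well above background on all 7 arrays and whose values did not overlap, 6 per direction for the comparison with the other times, genes well above background in 1 group and not the other, and list members that show a range; a few such genes are not reported here. Comparisons, lists and members were chosen with earlier results of these data known. Same-numbered untreated and 6 h samples deviated together with correlations of 0.06 to 0.28, not all over 0.1. Differently numbered ones had correlations of -0.27 to 0.08. Numbers were not treated as pairs in the main fit, so its p-values leave out any pairing by number. For normexp (offset 50) the median spot and background signal were used, since the mean signal is not among the columns. The fit was run on simulated data with independent normal noise and known changes placed in features of below-median spread. That simulation held no slide difference, shared deviation by replicate number or low array region, so it does not test the fit against these. The number of arrays limits the precision.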

Additional observations from a re-analysis of the deposited data

Results flagged for a closer look

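For 4 named genes every 6 h sample lay beyond all untreated samples on one side. Every sample of another time lay beyond all untreated samples on the other side. The difference between the times was not tested, and the times share the untreated samples. Carf stood at -0.37 at 6 h and at 0.15 at 12 h. Gjb1 stood at -0.29 at 6 h and at 0.12 at 24 h, and Cthrc1 at -0.27 at 6 h and at 0.16 at 24 h. Rapgef5 stood at 0.14 at 6 h and at -0.19 at 12 h. Under normexp background correction the 6 h values of Carf, Gjb1 and Cthrc1 changed sign.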

How the results depend on the processing

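In all 24 alternative settings 0 features passed an adjusted p of 0.05 with limma in either comparison, so no call depended on the processing. The number with an unadjusted p under 0.05 against untreated, 134, was 229 with only the groups compared in the fit, 212 under normexp, 211 with a Z score per array, 218 with the deposited scores, 606 with no filter, 297 with array weights, 236 within slide 1, 280 within slide 2 and 88 to 454 without 1 replicate. Leaving out rows 1 to 64 gave 101, and a fit with the replicate block gave 156. A fit without 12 h replicate 3 gave 181. The main fit did not treat replicate numbers as pairs. The share of these features that were higher, 57.5%, was 96.7% under normexp, 28.4% with the Z score, 27.1% with the deposited scores, 45.2% after quantile normalization, 41.8% with the slide as a block, 81.0% with no filter and 34.0% with array weights. It was 27.3%, 84.1% and 85.9% without untreated replicates 1, 2 and 3, and 33.5% without 6 h replicate 1. Features without overlap, 695, were 1497 with no filter, 4258 within slide 1 and 10880 within slide 2. They were 1664 to 2765 without 1 sample of the groups compared. The slides and the fits without 1 sample hold fewer samples. The share of these features that were higher was 37.7%, against 63.1% under normexp, 61.3% with no filter and 51.4% without untreated replicate 2. It was 22.3% with the Z score and 20.5% with the deposited scores. Against the other times, 219 became 99 under normexp, 502 with no filter, 497 with array weights, 898 within slide 1 and 160 to 366 without 1 replicate. Without 12 h replicate 3 it was 272. The median of HIF-induced genes, 0.0771, was 0.0229 within slide 1, 0.152 within slide 2 and 0.0436 to 0.104 without 1 replicate. Signs turned for Zfp467 within slide 2 (-0.0437) and, under normexp, for Nr0b1 (0.000745), Wipf2 (0.0242), Map2k7 (0.120), Gjb1 (0.108), Carf (0.0975), Glrb (0.0814) and Cthrc1 (0.0558); the cause was not tested. The median over all features was 0.0395 under normexp.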

Other observations

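In some genes, chosen after their values were seen, the replicates of a group differed far more than the groups did, and 6 h and untreated replicates of the same number stood near each other. The fibrillar collagen gene Col1a1 was at -1.51, -2.81 and -0.27 in 6 h replicates 1 to 3 and at -1.23, -2.48 and -0.38 in untreated replicates 1 to 3. The cyclin G gene Ccng1 was at -0.47, 0.29 and -0.98 in 6 h and at -0.41, 0.21 and -0.84 in untreated replicates. Over all features the same-numbered samples of the groups correlated at 0.06, 0.28 and 0.20 in their deviations from the group means, a description across features. Differently numbered samples of the groups correlated at -0.27 to 0.08.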
